A study of Mus musculus with 12 samples.

Results

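Interleukin-1 (IL-1) family ligands, their antagonist, their receptors and accessory chains were examined in mouse brains after stroke, in mice carrying either WT or Tet2-KO bone marrow (BM) cells. The genes were taken by symbol: Il1a, Il1rn, Il1r1, Il1r2, Il1rap, Il1rl1, Il1rl2, Il18r1, Il18rap and Il33, which are 10 of the 49315 genes in the table of read counts. The ligand genes Il1b and Il18 were not included. Bulk RNA-sequencing of brains covered 12 male mice at 14 d after a 30-min occlusion of the middle cerebral artery, 6 in each group. Recipients were CD45.1 Pep Boy mice irradiated with the head shielded and transplanted at 8 to 12 weeks of age, and donors were 8 to 14 weeks old. Stroke followed 8 to 10 weeks after transplantation. In the Tet2-KO group, 10% of the transplanted marrow was CD45.2 and lacked Tet2 and 90% was CD45.1 with intact Tet2. In the WT group both fractions had intact Tet2, so the transplants differed only in that minor donor fraction, and recipient brain cells carried intact Tet2 in all 12 mice. The paper reports that the Tet2-KO donor cells then expanded in blood, so their share there at stroke was larger than in the transplant. The labels give the same treatment entry, control cells and stroke, for every sample, and the groups were taken from the titles and genotype entries.

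IL-1 family cytokines are made by damaged or activated cells and signal through receptors that pair a ligand-binding chain with an accessory chain. IL-1α binds the receptor encoded by Il1r1, which recruits the accessory protein encoded by Il1rap and then the adaptor MyD88, IRAK kinases and NF-κB. The family is held in check by a receptor antagonist (Il1rn), which occupies the receptor without signalling, and by a decoy receptor (Il1r2), which binds ligand but lacks the signalling domain. IL-33 signals through ST2 (Il1rl1), IL-36 cytokines through Il1rl2, and both of these use the Il1rap chain, while IL-18 uses Il18r1 with Il18rap. IL-33 is abundant in oligodendrocytes and astrocytes of the adult brain, and IL-1α in the injured brain is made largely by microglia and infiltrating myeloid cells.

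Total counts per mouse lay between 12000261 and 21049763. The median total was 13490632 for WT and 15894080 for Tet2-KO mice. Brain identity was clear from neuronal, astrocytic and oligodendrocyte markers, whose summed levels, in TMM-scaled counts per 1000000 (CPM), were at least 3872, 5644 and 4393 in every mouse. Tet2 itself lay between 126 and 147 CPM in WT mice and between 117 and 137 CPM in Tet2-KO mice. Since brain cells kept the gene in both groups, this level does not check the labels. Of the Tet2-KO mice, mouse 5 stood apart: it had the highest level of its group for 8 of the 10 genes, and its summed monocyte-derived macrophage markers reached 947 CPM, against at most 522 CPM in the other Tet2-KO mice and 749 to 1747 CPM in WT mice. WT mouse 2 had the highest level of its group for 8 of the 10 genes as well. Some values are also given without Tet2-KO mouse 5. That mouse was singled out by its levels of these very genes, so these values describe how much rests on it and are no separate support.

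Of the 10 genes, 9 had enough counts to be tested, and 8 of these 9 had negative fold changes in the Tet2-KO group, beside 9671 of all 20290 genes tested. The 8 include Il33, at a log2 fold change of only -0.06. None passed an adjusted p of 0.05 in the edgeR quasi-likelihood test with Benjamini-Hochberg adjustment over 20290 genes, where 5 genes passed in all (0.0246% of those tested). At an unadjusted p below 0.05, 6 of the 9 were lower (Il1a, Il1rn, Il1r1, Il1r2, Il1rl1 and Il18rap) and 0 were higher, beside 12.2% of all genes tested that were lower and 10.8% that were higher at that level. Il1rn, Il1rl1 and Il18rap passed the filter on low counts only through the WT mice. Their place among the 6 is therefore no separate support. With at least 10 counts required in every library, they were not tested, and 3 members were lower (Il1a, Il1r1 and Il1r2), beside 12.2% of all genes. The median log2 fold change of the 9 genes was -0.77, against 0.01 over all genes tested. By the DESeq2 Wald test, the tool the study used, 5 members were lower at an adjusted p below 0.05 (Il1a, Il1rn, Il1r1, Il1r2 and Il18rap), beside 3.32% of the genes with an adjusted p. The same number was lower by limma-voom with quality weights, where 6.38% of all genes were called lower. Without Tet2-KO mouse 5, edgeR called 6 members lower, beside 7.3% of all genes, and without WT mouse 2 it called 0. With both of these mice left out, a choice made after the data were seen, it called 5 lower (Il1a, Il1rn, Il1r1, Il1r2 and Il18rap), beside 4.94% of all genes. For none of the 10 genes were all Tet2-KO mice below all WT mice, a pattern seen in 0.641% of the genes tested.

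**Figure D1:**
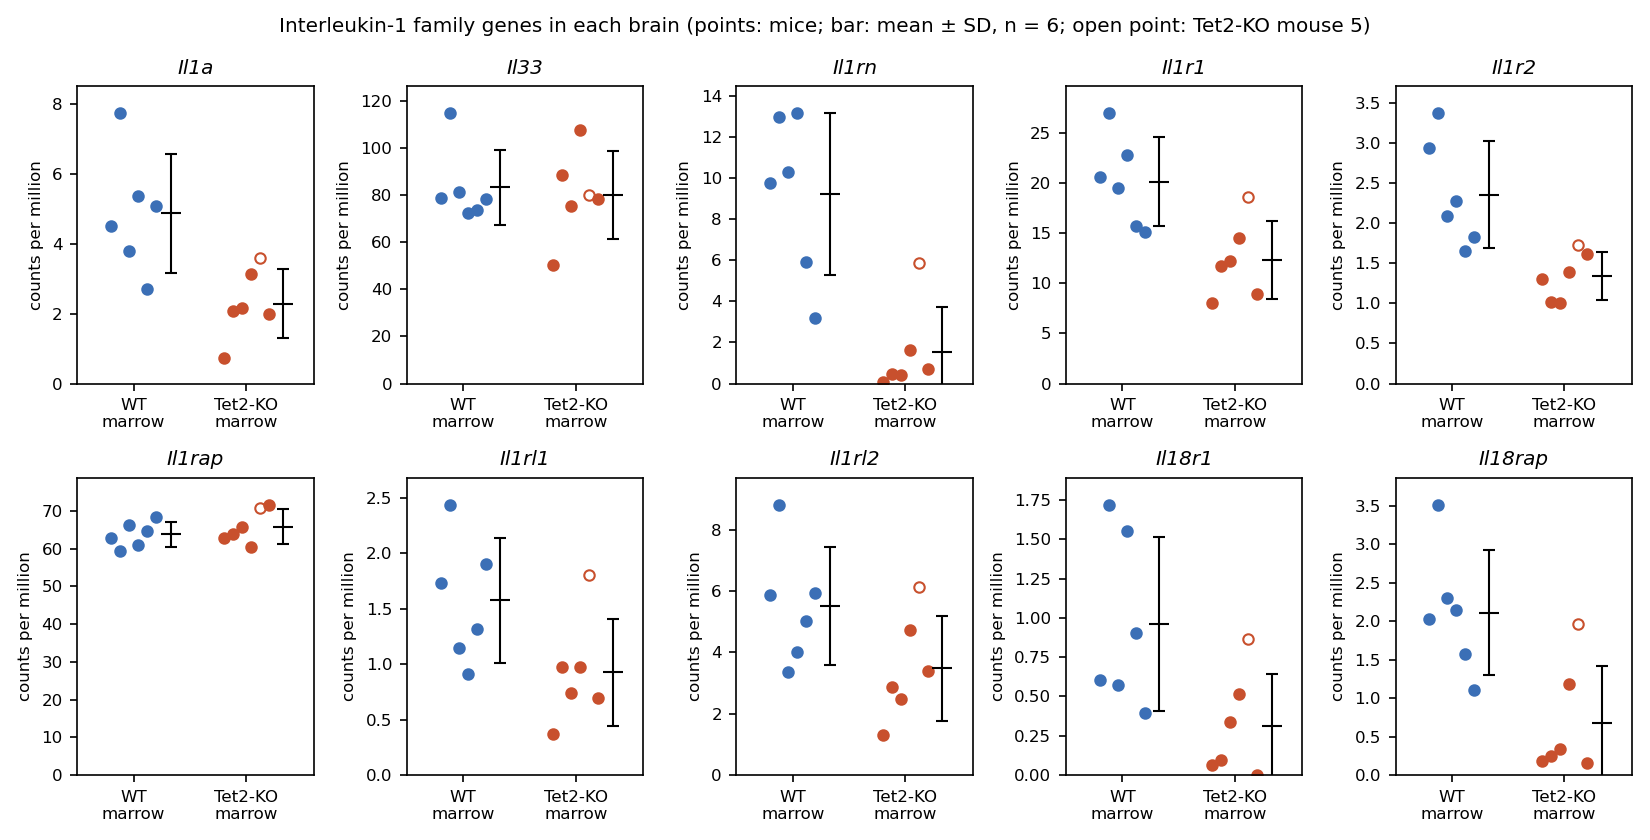
Levels in CPM (y axis, from 0) of the 10 genes in each mouse; filled and open points are mice, and bars give the mean ± SD of 6 mice, cut off at 0 where the SD exceeds the mean. Il1rn, Il1r1, Il1r2 and Il18rap sit lower in the Tet2-KO group, with Tet2-KO mouse 5 (open) nearest to the WT mice, while the groups overlap throughout for Il1rap and Il33.

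Upstream sequences are shown for 4 genes: Il1a and Il1rn, ligand and antagonist on the same chromosome, Il18rap, which had the next largest fold after Il1rn, and Il1rap, which hardly differed. Each is the stretch before the start annotated by RefSeq (build GRCm38.p6), cut where a GENCODE M21 exon begins and written in the direction of transcription; windows were found for all 10 genes, 17 in all. Capitals mark matches on either strand to the letters TGANTCA (AP-1), TTGCNNAA (C/EBP), GAGGAAGT (PU.1) or to the κB consensus of NF-κB; the motifs were chosen after the expression values were known.
Il1a, chr2:129309973-129310222, minus strand: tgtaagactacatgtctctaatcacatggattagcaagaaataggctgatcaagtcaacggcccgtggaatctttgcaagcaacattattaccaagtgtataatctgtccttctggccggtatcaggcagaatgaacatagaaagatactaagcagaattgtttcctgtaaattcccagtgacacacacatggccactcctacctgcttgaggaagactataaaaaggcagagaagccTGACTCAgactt
Il1rn, chr2:24336610-24336852, plus strand: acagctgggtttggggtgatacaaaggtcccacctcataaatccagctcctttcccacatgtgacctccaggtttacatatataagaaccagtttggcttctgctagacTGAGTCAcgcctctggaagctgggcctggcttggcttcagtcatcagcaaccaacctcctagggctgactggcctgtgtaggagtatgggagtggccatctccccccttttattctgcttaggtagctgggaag
Il18rap, chr1:40515112-40515361, plus strand: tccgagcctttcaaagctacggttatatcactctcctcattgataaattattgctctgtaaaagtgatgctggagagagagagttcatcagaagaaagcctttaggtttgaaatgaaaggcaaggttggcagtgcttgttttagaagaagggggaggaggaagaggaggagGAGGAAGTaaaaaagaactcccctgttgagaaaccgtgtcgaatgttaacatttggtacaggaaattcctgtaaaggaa
Il1rap, chr16:26581455-26581703, plus strand: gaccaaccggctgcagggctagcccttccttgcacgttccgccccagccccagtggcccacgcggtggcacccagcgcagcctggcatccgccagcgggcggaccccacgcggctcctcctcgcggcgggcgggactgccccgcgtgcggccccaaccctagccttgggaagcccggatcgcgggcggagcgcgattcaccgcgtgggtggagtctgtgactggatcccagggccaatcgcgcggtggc

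Within the 250 bases before each start, AP-1 letters were present in 2 of the 17 windows, of Il1a and Il1rn, and in 6.75% of all 32851 RefSeq windows of that length. C/EBP letters were present in 4 of the 17 windows (1 each of Il1r1, Il1rl1, Il1rl2 and Il33) and in 9.56% of all windows. PU.1 letters were present in 1 of the 17, that of Il18rap, and in 2.44% of all windows. The κB consensus was present in 1 of the 17, a window of Il1r1, and in 7.25% of all windows. The ratio of observed to expected CpG was 0.87 for Il1rap and 0.865 for Il1r2, and at most 0.441 in the windows of the other 8 genes. In all windows its median was 0.373, and 34% of them reached 0.6. GC content ran from 37.6% in a window of Il1rl1 to 74.4% in that of Il1rap. These matches describe the letters of the windows only.

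Of the ligands, Il1a (ENSMUSG00000027399, mm10 chromosome 2, 129299610 to 129309972, minus strand), which encodes the alarmin IL-1α, was at a lower level in Tet2-KO mice. In WT mice it had a lowest value of 2.72, a median of 4.80 and a highest value of 7.75 CPM, from 33 to 108 reads, and in Tet2-KO mice the corresponding values were 0.744, 2.12 and 3.61 CPM, from 12 to 61 reads. All 6 Tet2-KO mice were below the WT mean and 4 were below the lowest WT mouse, but the groups overlapped. Mean levels were 4.87 ± 1.70 CPM in WT and 2.29 ± 1.00 CPM in Tet2-KO mice (SD, n = 6 per group). The log2 fold change was -1.10 (SE 0.30), with an edgeR adjusted p of 0.116 and a DESeq2 adjusted p of 0.0176. Exons of Il1a share 222 bases with the gene Gm14023 on the opposite strand, and the strand used in counting is not given in the sources used here, so its reads cannot be fully assigned.

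Il33 (ENSMUSG00000024810, chromosome 19, 29925114 to 29960718), the gene of the nuclear alarmin IL-33, was the most highly expressed of the 10 genes and showed no detectable difference. Its lowest, median and highest values were 72.6, 78.8 and 115 CPM in WT mice and 50.3, 79.4 and 108 CPM in Tet2-KO mice. The ranges overlapped throughout, and a single mouse marked each extreme: WT mouse 2 the highest and Tet2-KO mouse 1 the lowest. This gave a log2 fold change of -0.06 (SE 0.17, edgeR adjusted p = 0.878), and its sign turned when either of those mice was left out.

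Il1rn (ENSMUSG00000026981, chromosome 2, 24336853 to 24351494, plus strand), the receptor antagonist, had the largest fold difference of the 10 genes. In WT mice 1 to 6 it was at 9.78, 12.98, 10.3, 13.2, 5.94 and 3.17 CPM. In Tet2-KO mice 1 to 6 it was at 0.062, 0.486, 0.403, 1.65, 5.88 and 0.692 CPM, which in mouse 1 was a single read. Tet2-KO mouse 5 lay inside the WT range and the other 5 lay below every WT mouse. Mean levels were 9.22 ± 3.96 CPM in WT and 1.53 ± 2.20 CPM in Tet2-KO mice, a fold of 6.46 in the fit. Its log2 fold change was -2.69 (SE 0.68, edgeR adjusted p = 0.115, DESeq2 adjusted p = 0.0360). Without Tet2-KO mouse 5 it was -3.75, with an edgeR adjusted p of 0.00646.

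Among the signalling receptors, Il1r1 (ENSMUSG00000026072, chromosome 1, 40225080 to 40317257), the receptor of IL-1α and IL-1β, had a lowest, median and highest value of 15.1, 20.1 and 27.0 CPM in WT mice. In Tet2-KO mice these were 7.99, 11.98 and 18.6 CPM. Only Tet2-KO mouse 5 reached the WT range, and the other 5 were below it. Il1r1 was 1.64-fold higher in WT mice (log2 fold change -0.71, SE 0.20), with an edgeR adjusted p of 0.121 and a DESeq2 adjusted p of 0.0183.

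Il1rl1 (ENSMUSG00000026069, chromosome 1, 40429570 to 40465415) encodes ST2, the receptor of IL-33, in a membrane form and a soluble form that traps the ligand, and gene counts do not separate the forms. Its lowest, median and highest values were 0.907, 1.52 and 2.44 CPM in WT mice and 0.372, 0.856 and 1.80 CPM in Tet2-KO mice. The groups overlapped, with 3 Tet2-KO mice below all WT mice, from 6 to 34 reads per library. The log2 fold change was -0.77 (SE 0.31, edgeR adjusted p = 0.169), and -1.02 without Tet2-KO mouse 5 (edgeR adjusted p = 0.0380), or -0.85 without both that mouse and WT mouse 2 (edgeR adjusted p = 0.0750). Its place among the 6 genes lower at the unadjusted level was lost in 5 of the 12 edgeR fits that left out 1 mouse: without WT mouse 2 (log2 fold change -0.60) or 6 (-0.71), or Tet2-KO mouse 1 (-0.61), 3 (-0.72) or 6 (-0.71).

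Il1rl2 (ENSMUSG00000070942, chromosome 1, 40324610 to 40367562), the IL-36 receptor, was at 3.38 to 8.82 CPM in WT mice, with a median of 5.45 CPM. In Tet2-KO mice it was at 1.30 to 6.12 CPM, with a median of 3.13 CPM. The ranges overlapped widely, with 3 Tet2-KO mice below all WT mice and 5 below the WT mean. This gave a log2 fold change of -0.67 (SE 0.32, edgeR adjusted p = 0.231, DESeq2 adjusted p = 0.171).

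Il18r1 (ENSMUSG00000026070, chromosome 1, 40465552 to 40500854), the ligand-binding chain of the IL-18 receptor, was too low for the edgeR filter. WT mice had 5 to 24 reads, or 0.397 to 1.72 CPM with a median of 0.754 CPM. Tet2-KO mice had 0 to 11 reads, or 0 to 0.863 CPM with a median of 0.217 CPM. Below all WT mice were 4 of the 6, and Tet2-KO mouse 5 was again the highest. On the scale of log2(CPM + 0.1), which understates changes at low levels, the group means differed by -1.63 (exact two-sided permutation test, unadjusted p = 0.0260, n = 6 per group). It was 0.0563 without WT mouse 2 and also without WT mouse 4, and the DESeq2 adjusted p was 0.0824.

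Of the accessory chains, Il18rap (ENSMUSG00000026068, chromosome 1, 40515362 to 40551705), which completes the IL-18 receptor, was lower beside its partner. WT mice 1 to 6 were at 2.03, 3.51, 2.30, 2.14, 1.57 and 1.11 CPM. Tet2-KO mice 1 to 6 were at 0.186, 0.243, 0.336, 1.18, 1.96 and 0.154 CPM. Tet2-KO mice 4 and 5 lay inside the WT range and the other 4 below it. The log2 fold change was -1.68 (SE 0.51, edgeR adjusted p = 0.123, DESeq2 adjusted p = 0.0373), and -2.23 without Tet2-KO mouse 5 (edgeR adjusted p = 0.0140).

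Il1rap (ENSMUSG00000022514, chromosome 16, 26581704 to 26730117), the accessory chain that the IL-1, IL-33 and IL-36 receptors share, was nearly level between the groups. It was at 59.5 to 68.5 CPM in WT mice (median 63.7) and at 60.4 to 71.7 CPM in Tet2-KO mice (median 64.7). No Tet2-KO mouse was below the WT range and 2 were above it. This gave a log2 fold change of 0.05 (SE 0.05, edgeR adjusted p = 0.653). It shares 552 exon bases with the antisense gene Gm20319, so reads from those bases cannot be fully assigned.

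The decoy receptor Il1r2 (ENSMUSG00000026073, chromosome 1, 40074079 to 40125231) had a lowest, median and highest value of 1.65, 2.18 and 3.37 CPM in WT mice, and of 1.01, 1.34 and 1.73 CPM in Tet2-KO mice. Tet2-KO mouse 5, at the top of its group, overlapped the lowest WT mouse and the other 5 lay below all WT mice. Its log2 fold change was -0.83 (SE 0.21, edgeR adjusted p = 0.110, DESeq2 adjusted p = 0.0222), with 15 to 47 reads per library. It had the smallest unadjusted edgeR p of the 9 genes, 0.00103.

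**Figure D2:**
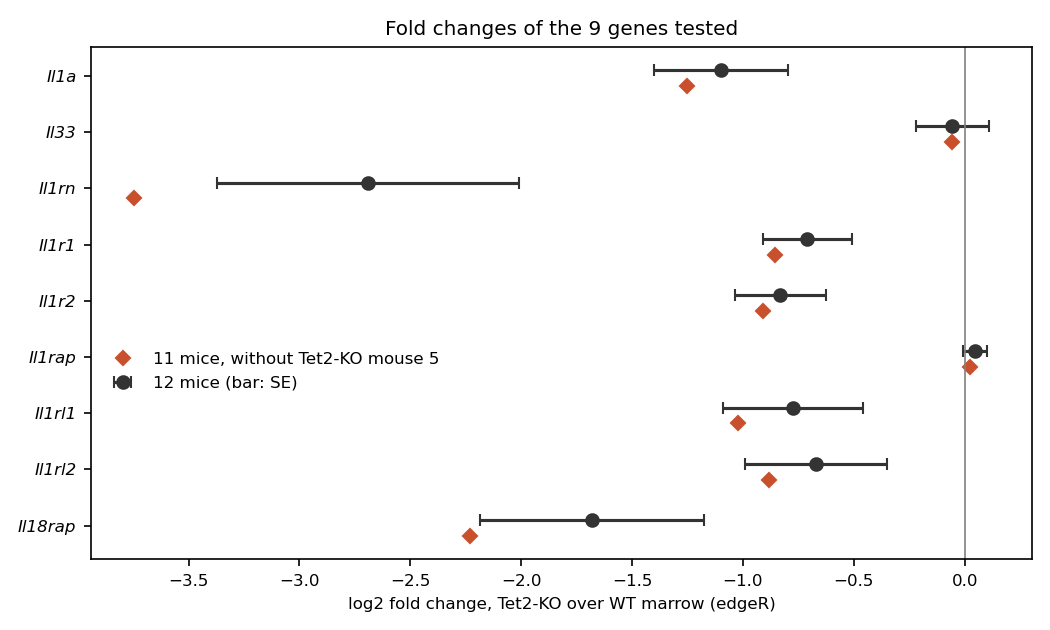
Log2 fold change of Tet2-KO over WT (x axis, edgeR) for the 9 genes tested; circles and bars are the value and SE with 12 mice, and diamonds the value without Tet2-KO mouse 5. Il1rn moves from -2.69 to -3.75 and Il18rap from -1.68 to -2.23, while Il33 and Il1rap stay near 0.

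Levels compared between genes were taken as CPM per kilobase of exon, over all annotated exons. In WT mice Il33 was highest at 28.9 ± 5.5, followed by Il1rap at 5.62 ± 0.30, Il1r1 at 3.16 ± 0.70, Il1a at 2.47 ± 0.86, Il1rn at 1.67 ± 0.72, Il1r2 at 1.23 ± 0.35 and Il1rl2 at 0.809 ± 0.281 CPM per kilobase (SD, n = 6). Il18rap (0.312 ± 0.120), Il1rl1 (0.228 ± 0.081) and Il18r1 (0.199 ± 0.115) were lowest on this scale. From Il1r1 down to Il1rl2, and among the lowest 3, each gene's mean ± SD overlapped that of the next. In Tet2-KO mice Il33 and Il1rap remained the highest, at 27.8 ± 6.5 and 5.80 ± 0.40 CPM per kilobase, and Il1rn, at 0.276 ± 0.397, lay below Il1r2 (0.704 ± 0.156) and Il1rl2 (0.511 ± 0.251).

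Unequal change between functional partners was tested within each mouse as the log2 ratio of their levels, with an exact two-sided permutation test and Benjamini-Hochberg adjustment over the 4 ratios. The antagonist Il1rn was lower relative to its competing ligand Il1a in Tet2-KO mice: the log2 ratio was 0.82 ± 0.76 in WT and -1.27 ± 1.07 in Tet2-KO mice. That is a difference of -2.10, with 5 of 6 Tet2-KO mice below all WT mice (exact permutation p = 0.00433, adjusted p = 0.0173). With log2(CPM + 1) the difference was -1.37, at the same p. Il1b, whose product binds the same receptor, was not part of this ratio. The accessory chain Il1rap was higher relative to Il1r1 by 0.77 (1.69 ± 0.39 in WT, 2.46 ± 0.44 in Tet2-KO), with 4 of 6 Tet2-KO mice above all WT mice (exact permutation p = 0.0108, adjusted p = 0.0216). The receptor Il1rl1 relative to its ligand Il33 differed by -0.67 (-5.66 ± 0.34 in WT, -6.32 ± 0.48 in Tet2-KO), with 5 of 6 Tet2-KO mice below all WT mice (exact permutation p = 0.0260, adjusted p = 0.0346). That last call did not hold when any mouse other than WT mice 3 and 4 and Tet2-KO mouse 5 was left out (adjusted p up to 0.0722) or with log2(CPM + 1), where the adjusted p was 0.0664. The decoy Il1r2 relative to Il1r1 had nearly equal means, -3.04 ± 0.18 in WT and -3.04 ± 0.48 in Tet2-KO mice (exact permutation p = 0.961, adjusted p = 0.961). Its spread was wider in the Tet2-KO group, where 4 mice lay below and 2 above all WT mice, but with log2(CPM + 1) 0 lay below, so that split depends on the pseudocount at these read numbers.

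**Figure D3:**
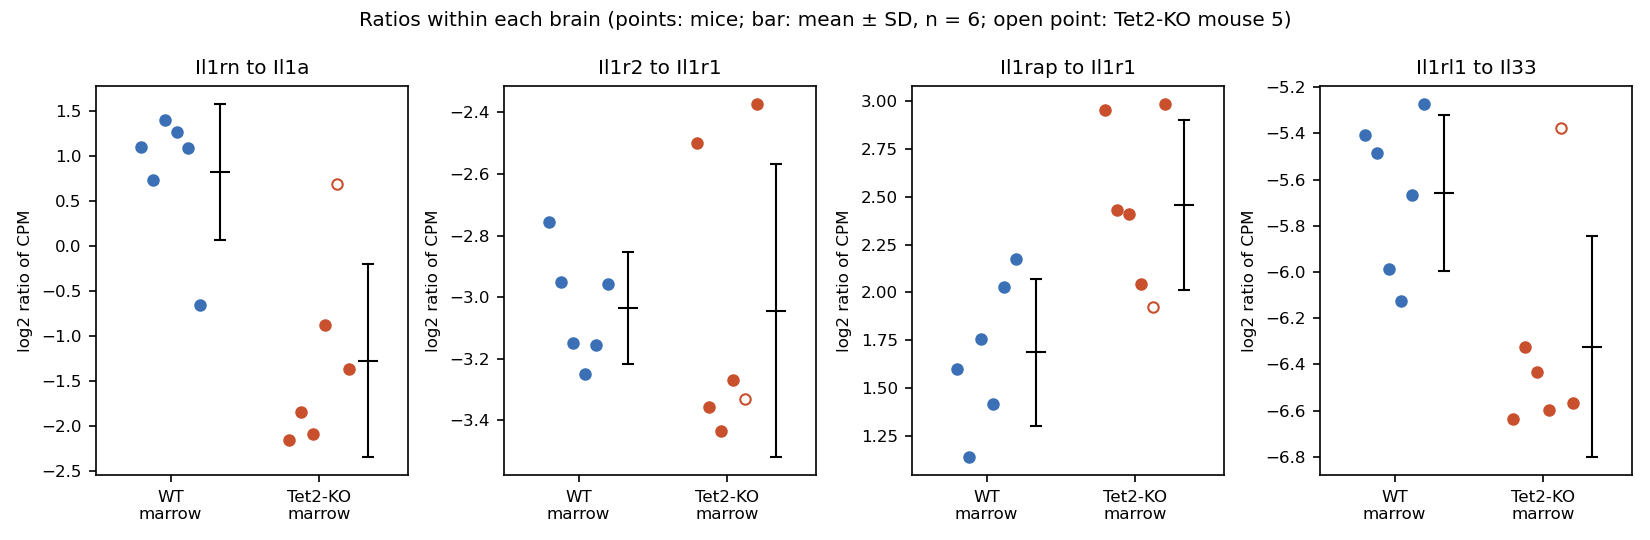
Log2 ratio of the levels of 2 genes within each mouse (y axis, log2 CPM difference); points are mice and bars the mean ± SD of 6 mice. For Il1rn to Il1a, 5 of 6 Tet2-KO mice lie below all WT mice, and for Il1rap to Il1r1, 4 of 6 lie above them, while Tet2-KO mouse 5 (open) sits nearest to the WT mice in both.

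Receptor genes Il1r2, Il1r1, Il1rl2, Il1rl1, Il18r1 and Il18rap form a cluster of 478 kb on chromosome 1, from 40074079 to 40551705 (mm10). Log2 fold changes of the 5 tested ranged from -1.68 (Il18rap) to -0.67 (Il1rl2). Of the 5 nearest protein-coding genes on each side, 7 were tested, with log2 fold changes from -0.55 to 0.31. At an unadjusted p below 0.05, Rnf149 (-0.55) and Map4k4 (-0.19) were lower and Creg2 (0.31) was higher. Over all genes tested, 12.2% were lower and 10.8% were higher at that level. Of the 7, 0 passed an adjusted p of 0.05 in edgeR.

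**Figure D4:**
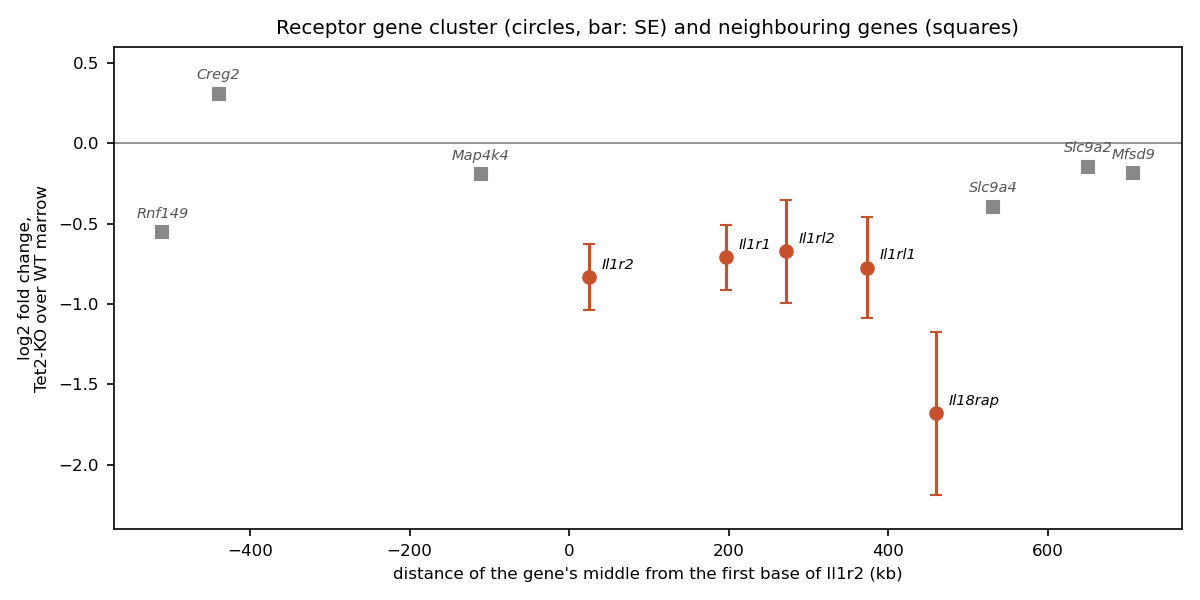
Log2 fold change of Tet2-KO over WT (y axis) against the distance of each gene's middle from the first base of Il1r2 (x axis, kb); circles with SE bars are the 5 tested genes of the cluster and squares are 6 tested neighbours, Pou3f3 lying farther out. The circles run from -1.68 to -0.67 and the squares from -0.55 to 0.31.

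A list of 9 further family genes, which leaves out Il1b and Il18 as the set of 10 does, had 5 genes with enough counts. At an unadjusted p below 0.05, 2 of the 5 were lower and 1 was higher, beside 12.2% and 10.8% of all genes tested. The median log2 fold change of the 5 was -0.20. Il36g, a ligand of the Il1rl2 receptor, was at 0.793 to 2.72 CPM in WT mice and 0 to 0.706 CPM in Tet2-KO mice, so that the groups did not overlap (log2 fold change -2.72, SE 0.56, edgeR adjusted p = 0.110, DESeq2 adjusted p = 0.00173). Il18bp, which encodes a soluble trap for IL-18, had means of 31.7 and 21.3 CPM in WT and Tet2-KO mice (log2 fold change -0.58, edgeR adjusted p = 0.124). The neuronal accessory-like gene Il1rapl1 was at 40.5 and 48.2 CPM (log2 fold change 0.25, edgeR adjusted p = 0.132). Il36b and Il1f10 had no read in any mouse.

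Downstream of the receptors, all 17 genes of the signalling list were tested. At an unadjusted p below 0.05, 6 of them had lower and 2 had higher levels, beside 12.2% and 10.8% of all genes tested. In edgeR 0 passed the adjusted threshold, and in DESeq2 2 were lower, beside 3.32% of the genes with an adjusted p. The median log2 fold change was -0.06. The lower genes with the smallest p were Myd88, the common adaptor (11.7 and 6.67 CPM in WT and Tet2-KO mice, log2 fold change -0.81), the kinase gene Irak4 (10.3 and 6.57 CPM, -0.65) and Ikbkb, a kinase of the NF-κB inhibitor (60.6 and 53.5 CPM, -0.18). The higher ones, about as many as the share over all genes would give, were Peli3 (0.18) and Tollip (0.10), whose product restrains IL-1 signalling. Of 20 genes that IL-1 is known to induce, 15 were tested and all 15 had negative fold changes, beside 9671 of all 20290 genes tested. Their median log2 fold change was -0.95. At an unadjusted p below 0.05, 11 of the 15 were lower, beside 12.2% of all genes tested, and 0 passed the adjusted threshold in edgeR. Examples were the neutrophil chemokine gene Cxcl1 (1.80 and 0.275 CPM, log2 fold change -2.66, edgeR adjusted p = 0.0816), whose groups did not overlap, the gelatinase gene Mmp9 (-0.95, edgeR adjusted p = 0.110) and Socs3, a feedback inhibitor of cytokine signalling (-1.38, edgeR adjusted p = 0.117). Cxcl1, like Il36g, passed the filter on low counts only through the WT mice, so its gap is no separate support. Mmp9 is also on the list of neutrophil markers below. DESeq2 gave no adjusted p for Il6, Csf2 and Csf3. It called 8 of the 20 listed genes lower, beside 3.32% of the genes with an adjusted p. Among them were Cxcl2 and Sele, which edgeR did not test. Many of these genes are also induced by other cytokines.

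Several cell type marker lists also differed between the groups. Over all genes tested, 12.2% were lower and 10.8% were higher at an unadjusted p below 0.05. In bulk tissue, fewer cells of a type and less RNA per cell cannot be told apart. By tissue staining at the same time after stroke, the paper reports similar numbers of macrophages and T cells in brains of both groups. How those cell numbers relate to the marker levels below was not tested. Of 7 markers of monocyte-derived macrophages 6 were lower at an unadjusted p below 0.05 (median log2 fold change -1.78), with summed levels of 749 to 1747 CPM in WT and 178 to 947 CPM in Tet2-KO mice. Neutrophil markers were lower in 4 of 4 tested of 8 listed, with sums of 9.60 to 23.0 CPM in WT and 3.69 to 8.08 CPM in Tet2-KO mice, T and NK cell markers in 5 of 5 tested of 10, with 15.6 to 25.8 and 7.73 to 14.8 CPM, and fibroblast markers in 6 of 6, with 581 to 1313 and 147 to 735 CPM. Of the tested markers, S100a9, Mmp8, Cd3e and Cd8a had means of 0.305, 0.529, 0.644 and 0.695 CPM in Tet2-KO mice. Those levels alone would not have passed the filter on low counts. The shares of tested neutrophil and T and NK cell markers are therefore no separate support, while the sums cover all listed markers. Of the 6 markers of group 2 lymphoid and regulatory T cells, cells that carry ST2, 3 were tested and 2 were lower, with sums of 8.99 to 13.2 and 6.71 to 10.04 CPM. No mast cell marker passed the filter, and their 5 genes summed to at most 3.59 CPM. Neuronal markers were higher in 8 of 8 (median log2 fold change 0.23). Of the homeostatic microglia and the oligodendrocyte markers, 0 of 7 each were lower at that level, astrocyte markers were lower in 0 and higher in 1 of 6, and endothelial markers were lower in 3 of 7. The part of these lists in the differences of the IL-1 family genes was not tested.

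Variation among mice of the same group was shared between several of the genes. After each group's mean was subtracted, log2 CPM over the 12 mice gave a Pearson r of 0.91 for Il1rl1 with Il1rl2, 0.91 for Il1r1 with Il18rap, 0.88 for Il1rn with Il18rap and 0.85 for Il1a with Il1rl2. Il1rap stood alone, with r between -0.25 and 0.18 to the other tested genes. All points share library and depth, and Tet2-KO mouse 5 and WT mouse 2 are at the extremes of many. Among genes tested with a mean of at least 1 CPM, the 3 genes most like Il1rn by this measure were Gpr35 (r = 0.98), Mmp13 (0.96) and Dab2 (0.95), and those most like Il1r1 were Gdf15 (0.98), Cxcr2 (0.97) and Il4ra (0.97). Closest to Il18rap were H2-Q5, Tspo and Bicc1 (0.96 each), and closest to Il1a were Lfng (0.98), Eml3 (0.97) and Bin2 (0.96). Il33 was most like Aqp4, the astrocyte water channel gene (0.97), Gm42603 (0.97) and Enpp6 (0.96), a gene of newly formed oligodendrocytes. For Il1rl1 the nearest were Rnf135, Timeless (0.96 each) and Plaur (0.94), for Il1rl2 BC037032 (0.98), Rnase4 and Fzd5 (0.97 each), for Il1r2 Tspan31 (0.91) and Pstpip1 (0.90), and for Il1rap Gm37366 (0.95), Gm43463 and Tmem161b (0.93 each).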

How the data were processed

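After depletion of ribosomal RNA, the authors sequenced paired ends, removed adapters with Trimmomatic 0.36 and mapped to mm10 with STAR 2.5.2b (build and versions from the submitters' processing notes). Exonic reads that mapped uniquely were then tallied by featureCounts of Subread 1.5.2. The deposited values are raw read counts per gene and mouse, with no column of another sample. Gene names, coordinates and exon lengths came from GENCODE M21 (48970 of 49315 identifiers matched), upstream sequences from RefSeq.

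From the counts, genes were kept by filterByExpr, scaled by TMM and tested in R 4.3.3 by quasi-likelihood in edgeR 4.0.16 (robust fit, 12 mice, no covariates), adjusted by Benjamini-Hochberg at 0.05; log2 CPM used a prior count of 2. Alternatives were DESeq2 1.42.0 on all genes with its own filtering, limma-voom (limma 3.58.1), other scalings and filters, a replicate block and each mouse left out. Total counts of 12000261 to 21049763 leave genes with few reads imprecise, and p-values set the group difference against the spread between mice. The members, lists and ratios were chosen with earlier results of these data known. Named genes were the 10 members, up to 3 genes per list and direction with the smallest p below 0.05, and the 3 genes (mean of at least 1 CPM) most correlated with each member, of which 1 is not reported here. Scripts were tested on simulated data. The authors' other assays were not analysed here.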

Additional observations from a re-analysis of the deposited data

Results flagged for a closer look

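In 4 of 28 sets of 6 mice (14 quantities in 2 groups), 1 mouse lay farther from the rest than Dixon's critical ratio of gap to range for 6 samples, which chance passes in about 1 of 20 sets. Tet2-KO mouse 5 was flagged for Il1rn, at 5.88 CPM against 1.65 CPM in the next mouse (ratio 0.728), and for the Il1rl1 to Il33 log2 ratio, at -5.37 against -6.32 (ratio 0.752). WT mouse 6 was flagged for the Il1rn to Il1a log2 ratio, at -0.66 against 0.73 in the next WT mouse (ratio 0.676). WT mouse 2 was flagged for Il33, at 115 CPM against 81.2 CPM (ratio 0.797).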

How the results depend on the processing

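The count of genes past the adjusted threshold, 5 with edgeR, was 898 with the DESeq2 Wald test, 1863 with limma-voom with quality weights, 44 with no filter on low counts, 0 with at least 10 counts in every library, 0 with the replicate block and from 0 to 2257 with 1 mouse left out, the highest without Tet2-KO mouse 5. The count of members past it, 0 with edgeR, was 5 with DESeq2 and with limma-voom and from 0 to 6 with 1 mouse left out, again highest without Tet2-KO mouse 5. Members at an unadjusted p below 0.05, 6 with edgeR, were 3 when at least 10 counts were required in every library, where fewer members are tested, and response genes went from 11 to 7. Signalling genes at that level, 8 with all mice, were 5 without WT mouse 2 and without Tet2-KO mouse 1. With WT mouse 2 and Tet2-KO mouse 5 both left out, a setting added after the data were seen, 1554 genes and 5 members passed. The Il33 log2 fold change, -0.06 with edgeR, was 0.026 with limma-voom, 0.059 with those mice left out and from -0.162 to 0.059 with 1 mouse left out, without a call under any of these. The Il1r2 to Il1r1 log2 ratio difference, -0.01, was 0.18 with log2(CPM + 1) and from -0.143 to 0.070 with 1 mouse left out, also without a call. The Il1rl1 to Il33 difference was -0.35 with log2(CPM + 1) (adjusted p = 0.0664, exact permutation) and from -0.86 to -0.59 with 1 mouse left out, the call being lost in 9 of 12 cases. The Il1rn to Il1a and Il1rap to Il1r1 calls held with every mouse left out in turn, under both pseudocounts and with DESeq2 size factors, though the Il1rn to Il1a difference was -1.37 with log2(CPM + 1). The labels number the mice of both groups from 1 to 6. Deviations of same-numbered mice from their group means had correlations from -0.17 to 0.23. Such values cannot show whether mice were matched, for example by cage or litter. The paper states that most cages, where possible, held recipients of both kinds of marrow. With a replicate block, the differences of -2.10 (Il1rn to Il1a), 0.77 (Il1rap to Il1r1) and -0.67 (Il1rl1 to Il33) had an adjusted p of 0.0833 in each case (exact sign-flip permutation test), where 6 pairs allow few distinct values. The cause of the other changes was not tested. Genes with few reads, such as Il18r1 with 0 to 24, limit what can be called at this depth.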
